A study of Mus musculus with 17 samples.

Results

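The transcripts described here are those of TGF-beta and BMP pathway genes, read in 17 single cells from mouse back skin. They were taken by gene symbol: TGF-beta, BMP, GDF and inhibin ligands, latent TGF-beta binding proteins, secreted antagonists such as those of the follistatin family, TGF-beta, BMP and activin receptors, SMADs, SMURF ligases, the TGIF and SKI corepressors and ID1 to ID4, leaving out the procollagen protease gene Bmp1. Of the 8446 rows of the table, 41 matched, each with a symbol of its own. Tgfb1, the inhibin genes, Id4, Smad6, Smad9 and Bmpr1b had no row, so their levels are unknown here. All 17 cells belong to 1 group. They came from adult C57BL/6 mice with the genotype Prrx1-CreERT;Tomato, which had received tamoxifen at 2 mg per 30 g of body weight daily for 3 days, and they were sorted as Tomato-positive after elastase and collagenase digestion and then picked singly. Tomato in this design marks cells in which a Cre recombinase driven by Prrx1, a mesenchymal homeobox gene, was active under tamoxifen. No cell is tied to an animal, and Tomato-negative or untreated cells were not analysed here. All values below are therefore levels and their spread over cells, without a test between conditions, and the cells count as 1 sample.

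Ligands of the TGF-beta superfamily are secreted dimers that bring together type II and type I serine/threonine kinase receptors. TGF-beta and activin type I receptors phosphorylate SMAD2 and SMAD3, BMP type I receptors phosphorylate SMAD1 and SMAD5, and both kinds of receptor-regulated SMAD enter the nucleus with SMAD4. In dermis the TGF-beta branch is known for driving collagen synthesis and myofibroblast formation, and the BMP branch for hair cycle control and for induction of the ID genes.

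The deposited table holds FPKM, a level per kilobase of transcript, on a log scale that is taken here as log2(FPKM + 1). The log base is not stated. Per the protocols, the kit was SMART-Seq v4 3' DE. Where reads come from 3' ends only, division by length lowers the values of long genes. Levels and detection of genes of unequal length are compared with that limit. A gene is called detected in a cell at FPKM 1 or more, which is a value of 1 or more. FPKM 10 is a value of 3.46. The values look quantile normalised: 4369 rows reached FPKM 1 in each of the 17 cells, so that each cell holds 51.7% of all rows. Read depth is unknown, and a value near 0 can be a transcript that was missed. The number of rows at the lowest value of a cell, from 871 in cell 14 to 1766 in cell 17, is the measure of library quality used beside the results. By other measures cell 16 was at the end of the range. Ribosomal protein genes held 11.98% of FPKM there, the highest share (median 7.75%), followed by 10.94% in cell 11 and 10.07% in cell 2. Its median Spearman correlation to the other cells was the lowest (0.416, median 0.469), followed by 0.430 in cell 2 and 0.438 in cell 17. Each cell had 16 to 18 of the 18 fibroblast markers that have a row. Some markers of other cell types were detected as well: per cell at most 1 of 2 measured keratinocyte, 1 of 1 immune, 2 of 3 endothelial, 5 of 6 pericyte or smooth muscle, 4 of 4 adipocyte, 2 of 2 Schwann cell, 1 of 1 melanocyte and 1 of 1 erythroid genes. Those in the most cells were Alas2 (erythroid, 14), Fabp4 (adipocyte, 12) and Mbp (Schwann cell, 12). Cell 4 had 5 of the 6 pericyte or smooth muscle markers. The 6 summed there to 11.4, the highest of a range that began at 0.151. Cell 16 had all 4 adipocyte markers (Cfd 9.70, Fabp4 6.52, Car3 5.85 and Pparg 2.56), which summed to 24.6, the highest of a range that began at 0.775, and the highest Esam (3.92, endothelial) and Higd1b (4.32, pericyte).

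Pathway genes were present in every cell, but few of them in all cells. Fstl1, Id3, Tgfbr2, Tgfbr3 and Ltbp4 were detected in all 17 cells, which makes 5 of 41 members (12.2%) where 13% of all rows were. A share this near to that of all rows is not a result about the members. In at least 9 cells 25 members were detected (61.0%), where 46.9% of all rows were, and no member was absent from every cell, where 0.912% of all rows were. FPKM 10 was reached by 9 members (22.0%) in at least 9 cells, where 26.6% of all rows did, and 2 members, Fstl1 and Id3, in all 17 (4.88%), where 5.65% of all rows did. The median of the members' means was 2.37, beside 1.89 over all rows. In at least 1 cell 40 of the 41 (97.6%) reached FPKM 10, where 94.5% of all rows did, the exception being the activin receptor gene Acvr2a. The shares at FPKM 10 are near those of all rows too.

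**Figure D1:**
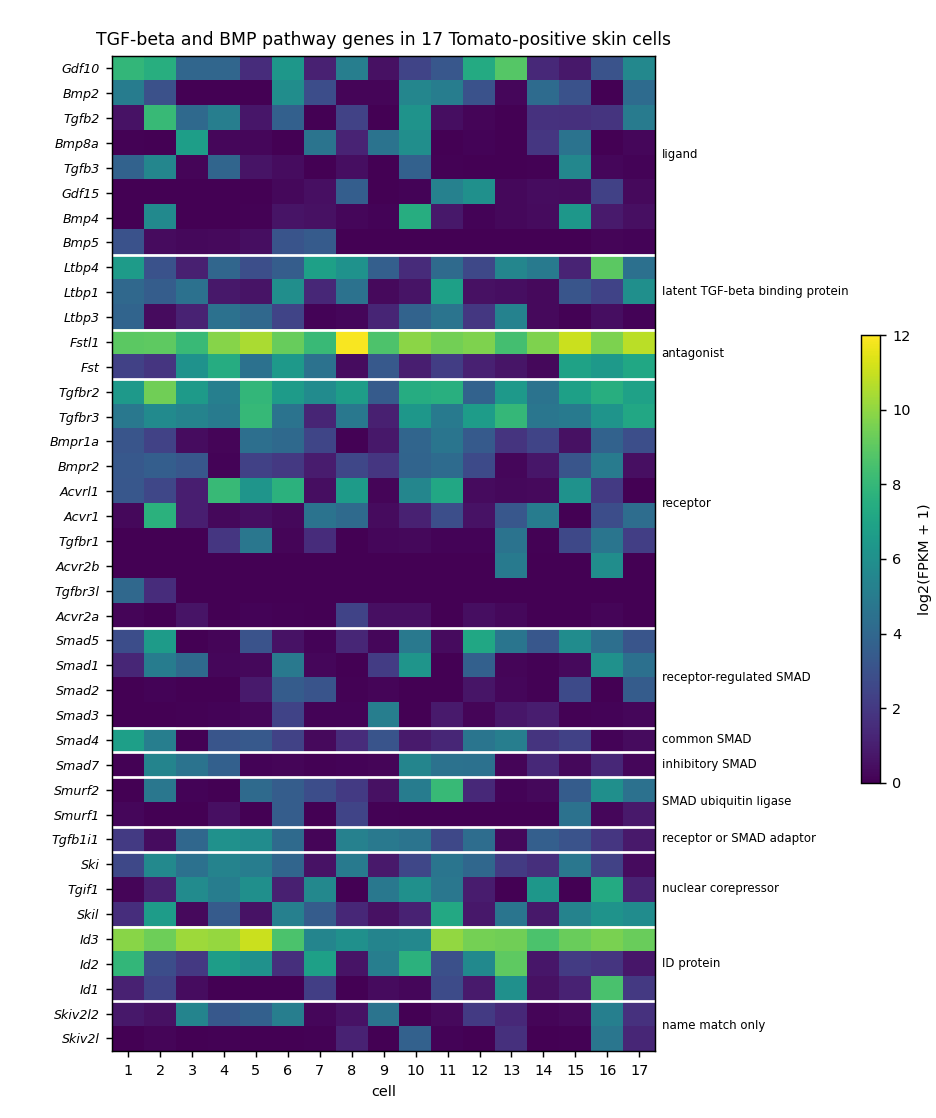
Deposited values, log2(FPKM + 1), of 40 of the 41 genes (rows, grouped by role) in the 17 cells (columns), from 0 in dark purple to 12 in yellow. Fstl1 and Id3 form continuous bright rows (lowest values 8.13 and 5.39), whereas most ligands and SMADs are bright in a few cells only.

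Of 8 ligand genes none was detected in all cells, 3 were in at least 9 and each cell had 1 to 6. The ligand found in the most cells was Gdf10, which encodes a BMP-related factor also called BMP3B, in 15 cells. It ranged from 0.54 in cell 9 through a median of 3.94 to 8.83 in cell 13, with cells 1 (7.94), 2 (7.53) and 12 (7.36) next. Bmp2, a canonical BMP ligand, was detected in 10 cells with a median of 2.97 and a highest value of 5.88 in cell 6. It was at 0 in 4 cells. Over cells Bmp2 had a Spearman correlation of -0.67 with the number of rows at the lowest value, the most negative of the 25 members detected in at least 9 cells, and the part of library quality in its pattern was not tested. Among TGF-beta isoforms Tgfb1 had no row. Tgfb2, the more widely detected of the isoforms with a row, was found in 10 cells, with a median of 1.72 and peaks of 8.08 in cell 2 and 6.16 in cell 10.

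The remaining ligands were seen in under 9 cells. Tgfb3 was detected in 5, always at FPKM 10 or more: cell 15 (5.54), cell 2 (5.52), cell 4 (3.93), cell 1 (3.78) and cell 10 (3.72). Bmp4, a ligand of dermal papilla and hair cycle control, was found in 3 cells, at 7.49 in cell 10, 6.37 in cell 15 and 5.71 in cell 2, and at 0.89 or less in the other 14. Each of those 3 cells also had Tgfb3 and Tgfb2, with Tgfb2 at 1.66 in cell 15. This overlap was noticed after the values were seen, and with 3 cells it is a description. Bmp8a was detected in 7 cells, from a median of 0.22 to 6.71 in cell 3. Gdf15, a stress-induced cytokine that signals outside the classical receptors, was found in 4 cells, at 6.05 in cell 12, 5.29 in cell 11, 3.61 in cell 8 and 2.30 in cell 16. Bmp5 was found in cells 7 (3.46), 6 (3.13) and 1 (3.02) and was the only ligand of the 8 that reached FPKM 10 in a single cell.

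The latent TGF-beta binding proteins, which tether inactive TGF-beta to the matrix, had 3 genes in the table and all 3 were detected in at least 9 cells. Ltbp4, an elastic fibre protein, was detected in 17 cells, from 1.07 in cell 3 to a median of 3.98 and 8.98 in cell 16. Its lowest values lay just above the detection threshold, with 1.18 in cell 15. Ltbp1 was detected in 10 cells (median 2.41), with 6.82 in cell 11, 5.96 in cell 17 and 5.93 in cell 6. Ltbp3 was detected in 10 cells (median 1.24) and peaked at 5.32 in cell 13. Its exons overlap those of a gene on the opposite strand that also has a row, and no source used here says whether counting used strand. The same limit applies to Acvr2a (with Orc4), Skiv2l2 (with Plpp1) and Skiv2l (with Dxo). A further 11 members overlap exons of genes that have no row.

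Secreted antagonists included the highest member of all. Fstl1, a follistatin-like glycoprotein of mesenchyme that binds BMP ligands, was at FPKM 10 or more in all 17 cells, between 8.13 in cell 7 and 11.88 in cell 8, with a median of 9.62 and an SD of 1.03. Its SD was the smallest of the 5 members detected in all cells, the others running from 1.51 for Tgfbr2 to 2.15 for Ltbp4. Fst, which encodes the activin trap follistatin, was detected in 14 cells over a range from 0.27 in cell 14 to 7.43 in cell 4. Cells 15, 16 and 17 held 6.92, 6.44 and 7.16. Its Spearman correlation with the number of rows at the lowest value was 0.62, and the part of library quality in its pattern was not tested.

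Of the 10 receptor genes 2 were detected in all cells and 4 in under 9. Tgfbr2, the type II receptor that binds TGF-beta, ranged from 3.44 in cell 9 to a median of 6.58 and 9.40 in cell 2, and missed FPKM 10 in cell 9 alone. Tgfbr3, which encodes betaglycan, the co-receptor that presents TGF-beta 2, ranged from 1.06 in cell 9 and 1.23 in cell 7 to 8.03 in cell 5 and 7.99 in cell 13, with a median of 4.99. Tgfbr1, the type I partner of Tgfbr2, was detected in 7 cells only, at 4.76 in cell 5, 4.66 in cell 16, 4.55 in cell 13, 2.58 in cell 15, 2.21 in cell 17, 1.90 in cell 4 and 1.54 in cell 7. The median of Tgfbr1 was 0.21. On the FPKM scale, per length, the median level of Tgfbr1 was far below that of Tgfbr2. The exonic lengths are 6.53 kb and 8.19 kb.

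The sequences before the annotated starts of Tgfbr2 and Smurf2 are shown because the levels of these genes were the most alike by Spearman correlation (0.78) of the 300 member pairs described further on. Promoter windows in RefSeq (build GRCm38.p6) were matched by symbol for 27 of the 41 members, in 38 windows, and cut to the 250 bases before the start. Capitals mark GTCT or its reverse complement AGAC, the short SMAD-binding box, and GGCGCC, the GC-rich site bound by BMP SMADs. The longer CAGACA, which contains AGAC, was searched as well. The Tgfbr2 window is chr9:116175364-116175613 and the Smurf2 window chr11:106920716-106920965, both on the minus strand and written 5′ to 3′. Both end just before the annotated first exon, and the Smurf2 window shares 46 bases with the annotated miRNA gene Gm27322.
Tgfbr2: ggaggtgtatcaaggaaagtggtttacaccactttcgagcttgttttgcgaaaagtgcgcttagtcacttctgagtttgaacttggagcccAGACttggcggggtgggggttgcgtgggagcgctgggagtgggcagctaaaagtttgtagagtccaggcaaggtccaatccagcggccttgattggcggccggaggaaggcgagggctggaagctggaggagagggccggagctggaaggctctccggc
Smurf2: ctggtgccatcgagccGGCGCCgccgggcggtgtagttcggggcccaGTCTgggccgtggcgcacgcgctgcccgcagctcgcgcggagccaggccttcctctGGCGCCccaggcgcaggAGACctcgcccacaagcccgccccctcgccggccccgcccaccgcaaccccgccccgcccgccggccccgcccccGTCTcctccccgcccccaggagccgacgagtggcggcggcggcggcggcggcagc
The Tgfbr2 window held GTCT or AGAC 1 time and GGCGCC not at all, with 58.4% G and C. The Smurf2 window held the box 3 times and GGCGCC 2 times, with 82.0% G and C. Neither held CAGACA. Of all 32851 windows of this length 82.9% held the box, 17.1% CAGACA and 9.59% GGCGCC. Of the 38 windows of members 30 held the box, 7 CAGACA and 9 GGCGCC. By gene these were 22, 6 and 8 of 27. Windows of the same gene can overlap, and no allowance was made for G and C content. A match is a description of letters and no binding was measured.

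Acvrl1, which encodes ALK1, an alternative type I receptor best known from endothelium, was detected in 10 cells over the widest range of any receptor gene here. It was highest at 8.11 in cell 4, followed by 7.70 in cell 6, 7.18 in cell 11, 6.57 in cell 8, 6.24 in cell 5, 6.13 in cell 15 and 5.53 in cell 10, between 2.03 and 3.24 in cells 1, 2 and 16, and below 1 in the other 7, with a median of 2.55. Of the 3 measured endothelial markers, Tek was detected in 5 of the 7 cells with Acvrl1 above 5, at 6.24 in cell 5, 6.02 in cell 6, 5.07 in cell 15, 3.72 in cell 8 and 2.15 in cell 10, and was 0.16 in cell 11 and 0.00 in cell 4. Elsewhere Tek was detected in 2 cells, at 5.21 in cell 17, where Acvrl1 was at its lowest, and 3.1 in cell 12. Of those 7 cells Plvap was detected in cell 8 (3.19) and Esam in cell 11 (2.70). Their part in the Acvrl1 pattern was not tested.

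BMP receptors were moderate on the FPKM scale, per length, with exonic lengths of 6.35 kb for Bmpr1a and 17.98 kb for Bmpr2. Bmpr1a and Bmpr2, the main type I and type II receptors for BMP2 and BMP4, were each detected in 12 cells, with medians of 2.51 and 2.56 and highest values of 4.68 in cell 11 and 5.00 in cell 16. Acvr1, the type I receptor ALK2, was detected in 9 cells (median 1.09) and peaked at 7.64 in cell 2, followed by 5.03 in cell 14. The activin type II receptors were nearly absent: Acvr2a was detected in cell 8 alone (2.43), and Acvr2b in cell 16 (5.87) and cell 13 (4.94) and at the lowest value in the other 15. Tgfbr3l, a betaglycan-like co-receptor gene, was found in cells 1 (4.06) and 2 (1.51).

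Among intracellular mediators, the SMADs of the BMP branch were more widely detected than those of the TGF-beta branch. Smad5 was found in 11 cells with a median of 3.08 and 7.16 in cell 12, and Smad1 in 9 with a median of 1.28 and 6.25 in cell 10. Either gene was present in 14 cells. Smad2 was found in 4 cells, at 3.50 in cell 6, 3.48 in cell 17, 3.14 in cell 7 and 2.69 in cell 15. Smad3 was found in 2, at 5.13 in cell 9 and 2.43 in cell 6. Smad2 or Smad3 was thus present in 5 of 17 cells (29.4%, exact Clopper-Pearson 95% interval 10.3% to 56.0%), and Smad1 or Smad5 in 14 (82.4%, 56.6% to 96.2%). The intervals take the cells as independent and cover counting error over cells only, with no allowance for animals. These counts hold at FPKM 1, and no other threshold or length setting was applied to them. Smad4, the shared partner, was detected in 12 cells, from 0.09 in cell 3 through a median of 2.33 to 6.78 in cell 1.

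Smad7, the inhibitory SMAD that both branches induce as feedback, was either clearly on or low. It was 5.46 in cell 10, 5.41 in cell 2, 4.55 in cell 3, 4.54 in cell 11, 4.47 in cell 12 and 3.66 in cell 4, then 1.40 and 1.34 in cells 14 and 16 and 0.28 or less in the other 9. Smurf2, a ubiquitin ligase that SMAD7 brings to TGF-beta receptors, was detected in 11 cells (median 2.84) and peaked at 8.08 in cell 11, followed by 5.98 in cell 16. Smurf1 was found in 3 cells, at 4.51 in cell 15, 3.55 in cell 6 and 2.44 in cell 8. Tgfb1i1, which encodes the focal adhesion adaptor HIC-5, was detected in 13 cells with a median of 3.62 and a highest value of 6.08 in cell 4.

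Nuclear corepressors that damp SMAD transcription were detected in most cells. Ski was found in 14 cells (median 3.92), with 5.66 in cell 2 and 0.34 in cell 17. Skil, which encodes SnoN, was found in 12 (median 3.43), with 7.24 in cell 11, 6.64 in cell 2 and 6.16 in cell 16. Tgif1, a homeodomain corepressor, was found in 12 with the highest median of the 3, 4.75. It was at 0 in cells 8, 13 and 15 and reached 7.32 in cell 16.

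The ID proteins, which bind basic helix-loop-helix factors and keep them off DNA, differed widely from one gene to the next. Id3 was at FPKM 10 or more in all 17 cells, Id2 in 8 and Id1 in 2. Id3 lay between 8.59 and 11.05 in 13 cells, with the highest value in cell 5, and between 5.39 and 6.04 in cells 7 (5.47), 8 (6.04), 9 (5.39) and 10 (5.61). No cell fell between 6.04 and 8.59. The 4 lower cells carry consecutive numbers, and no source used here says what such cells share. They had 880 to 1259 rows at the lowest value, within the range of the others, but over all 17 cells Id3 had a Spearman correlation of 0.46 with that number. Its part in the Id3 pattern was not tested.

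Id2 was detected in 14 cells and spread from 0.64 in cell 8 to 9.01 in cell 13 around a median of 2.92, with no cell between 2.92 and 5.16. Of the 4 cells with low Id3, Id2 was 7.70 in cell 10, 6.84 in cell 7, 5.16 in cell 9 and 0.64 in cell 8. Cells 7 and 10 were the 2 of 17 cells in which Id3 did not exceed Id2. Id1, the most direct BMP target of the family, was detected in 8 cells but lay under 3 in all except cell 16 (8.57) and cell 13 (6.03). Over the 17 cells the Spearman correlation of Id1 and Id3 was 0.09 (Pearson 0.19), in cells that share a normalisation, and 0.48 in cells 6 to 14 only. It was 0.04 without cell 16 and lay between 0.00 and 0.26 when any 1 cell was left out. Cells 13 and 16 were also the 2 cells with Acvr2b. These joint values, noticed after the fact, rest on 2 cells, and cell 16 is the library least correlated with the other cells.

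**Figure D2:**
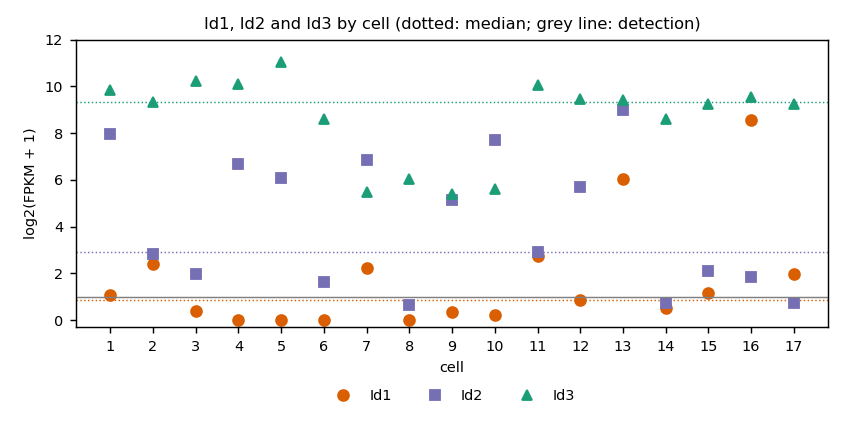
Values of Id1 (circles), Id2 (squares) and Id3 (triangles), log2(FPKM + 1), in each of the 17 cells; dotted lines are medians over cells and the grey line is the detection threshold of 1. Id3 drops to between 5.39 and 6.04 in cells 7 to 10, and Id1 stands above 3 only in cells 13 and 16.

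The symbol pattern also took in Skiv2l2 and Skiv2l, RNA helicase genes with no known place in the pathway. Skiv2l2 was detected in 9 cells (median 1.37, highest 5.42 in cell 3) and Skiv2l in 5 (median 0.08, highest 4.70 in cell 16). Without both, 24 of 39 members were detected in at least 9 cells.

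Joint detection was counted for receptors and SMADs that act in 1 chain, with combinations chosen after the values were seen. Bmpr2 stood together with Bmpr1a or Acvr1 in 9 cells, and the whole BMP chain, with Smad1 or Smad5 and Smad4 added, in 6 (cells 1, 2, 5, 6, 8 and 12; 35.3%, exact 95% interval 14.2% to 61.7%). Tgfbr2 and Tgfbr1 stood together in 7 cells, and in 13 when Acvrl1 was allowed in place of Tgfbr1. The whole chain of Tgfbr2, Tgfbr1, Smad2 or Smad3 and Smad4 was found in cell 15 alone (5.88%, exact 95% interval 0.149% to 28.7%). Both intervals take the cells as independent and cover counting error over cells only. They make no allowance for animals or for the choice of combinations. These counts say which transcripts passed FPKM 1 together. No other threshold or length setting was applied to them, and counts expected from each gene's own detection were not computed. The BMP chain allowed alternatives for both the type I receptor and the receptor-regulated SMAD, the TGF-beta chain for the SMAD alone. Proteins and SMAD phosphorylation were not measured.

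The members varied together only weakly. Over the 300 pairs of the 25 members detected in at least 9 cells the mean Spearman correlation over cells was 0.072, with 184 pairs above 0, 13 above 0.5 and 5 below -0.5. The share of such pairs over all symbols was not counted, so these pair counts are not results about the members. The mean over all pairs of the 3956 symbols detected in at least 9 cells was 0.00065. The cells have nearly equal distributions, and the part of the normalisation in both means was not tested. All these values are descriptions over 17 cells that share a normalisation, and no test was made. The highest pair was Tgfbr2 and Smurf2 (0.78). The 4 cells with the highest Smurf2, cells 11, 16, 10 and 2, all had Tgfbr2 between 7.45 and 9.40, while cells 9, 12, 14 and 4, the lowest for Tgfbr2, had Smurf2 between 0.00 and 1.38. The correlation was 0.77 without cell 16 and 0.72 in cells 6 to 14 only. The Pearson correlation was 0.65, and 0.60 with a pseudocount of 0.1, and by Pearson Ltbp3 with Id2 and Acvrl1 with Ski were more alike (both 0.68). In cells 6 to 14 the highest pair was Ltbp1 with Acvrl1 (0.95). Neither Tgfbr2 nor Smurf2 followed the number of rows at the lowest value (0.19 and 0.06). The windows printed above belong to Tgfbr2 and Smurf2.

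Smurf2 appeared in 4 of the 8 highest pairs, also with the BMP receptors Bmpr1a (0.61) and Bmpr2 (0.56) and with Skil (0.54). Acvrl1 and Ski came second (0.74): Ski was between 3.92 and 5.38 in cells 4, 5, 6, 8, 11 and 15, where Acvrl1 exceeded 6. Other cells went against this: Ski was highest in cell 2 (5.66), where Acvrl1 was 2.55. In cells 3 and 12 Ski was 4.46 and 4.03 and Acvrl1 0.99 and 0.37, and in cell 10 Ski was 2.55 and Acvrl1 5.53. Ltbp3 and Id2 followed at 0.62, Tgfbr2 and Bmpr2 at 0.56 and Tgfbr3 and Id3 at 0.55. The last pair shared its low cells 7 and 9. The 4 lowest pairs were Tgfb1i1 with Skil (-0.61), Gdf10 with Tgif1 (-0.53), Smad4 with Tgif1 (-0.53) and Acvr1 with Tgfb1i1 (-0.52). Skil was below 1.4 in cells 3, 5, 8, 9, 10, 12 and 14, in each of which Tgfb1i1 was between 3.62 and 5.83.

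**Figure D3:**
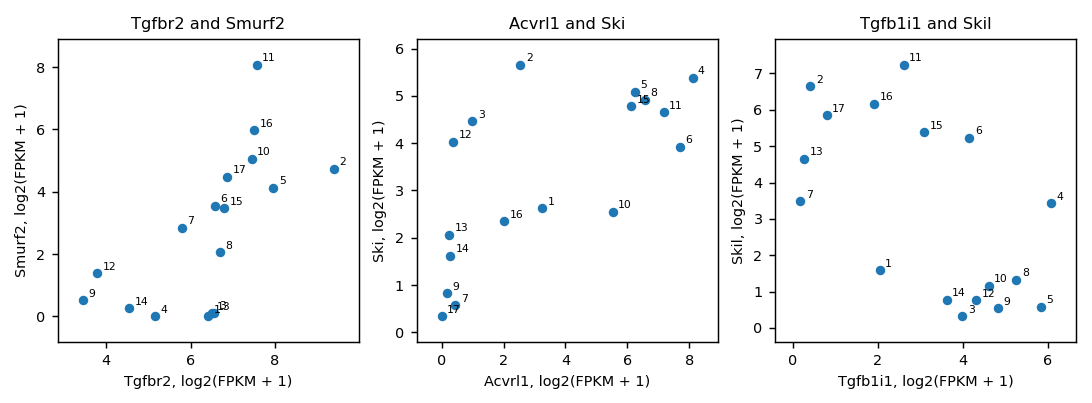
Values, log2(FPKM + 1), of the 2 most alike pairs (Tgfbr2 with Smurf2, Acvrl1 with Ski) and the most opposed pair (Tgfb1i1 with Skil); each point is 1 of the 17 cells with its number. Spearman correlations over cells are 0.78, 0.74 and -0.61.

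Rows whose pattern over cells was most like Id3 and Tgfbr2 were sought by Spearman correlation among the 3955 other symbols detected in at least 9 cells. For Id3 they were AI314180 (Spearman correlation 0.83), Cxcl13 (0.75), C2 (0.75), Retsat (0.75) and Arrdc3 (0.74). Among them Cxcl13 encodes a B cell chemokine and C2 a complement protease. For Tgfbr2 they were Slc41a1 (0.84), Scara5 (0.80), Smurf2 (0.78), Rad23b (0.78) and Ptpn11 (0.78). Smurf2 thus ranked 3 of 3955. Values of this size are the extremes of many rows over 17 cells.

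Pathway genes outside the symbol pattern were taken from prepared lists, whose counts stand beside the 46.9% of all rows detected in at least 9 cells and the 13% detected in all. Of 24 extracellular modulators 15 were measured and 8 were detected in at least 9 cells. Vasn, which encodes the TGF-beta trap vasorin, had a lowest value of 2.89, a median of 6.37 and a highest of 8.67, and Nbl1, a BMP antagonist of the DAN family, 2.27, 6.33 and 8.22. Both were detected in all 17 cells, as was Bmp1. The BMP modulator Bmper was found in 14. Of 22 genes that store or activate TGF-beta 16 were measured, 13 were detected in at least 9 cells and 8 in all. They were led by the metalloproteinase gene Mmp2 (mean 8.22, SD 0.80), the proteoglycan gene Bgn, the thrombospondin gene Thbs2 and the fibrillin gene Fbn1. Of 29 cytoplasmic and nuclear regulators 24 were measured and 11 reached 9 cells, a share near that of all rows, among them Fkbp1a, whose product FKBP12 holds type I receptors inactive, the coactivator gene Crebbp and the deubiquitinase gene Usp9x.

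Target genes differed by branch in how many could be read. Of 25 textbook TGF-beta targets 19 were measured, 17 were detected in at least 9 cells and 10 in all. They were led by the matrix genes Col3a1 (mean 11.15), Col1a2 (10.98), Col1a1 (8.82) and Fn1 (8.52), 4 genes that are also on the fibroblast marker list. The targets that follow were chosen after their values were seen. Ctgf, an early target, was detected in 9 cells and peaked at 8.14 in cell 15. The feedback gene Pmepa1 was detected in 12 cells, and Acta2, the smooth muscle actin of myofibroblasts, in 6. Acta2 was 5.64 in cell 8 and lay near the threshold, between 1.10 and 2.00, in cells 1 to 5. It is also on the pericyte or smooth muscle marker list. Of 20 BMP targets only 6 were measured, and 4 of those are members, so the list adds Hes1 in 15 cells and Msx1 in 6. Of 11 factors with a helix-loop-helix domain, the partners or relatives of ID proteins, 9 were measured and 7 were detected in at least 9 cells, among them Ebf1, Tcf4, Hes1 and Twist1.

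The number of members detected ran from 16 in cell 9 and 17 in cell 14 to 27 in cells 2, 6 and 10 and 29 in cell 16. The median was 22 (SD 3.69), or 53.7% of the members beside 51.7% of all rows. The spread for other sets of as many rows was not computed, so this range is not a result about the pathway. The Spearman correlation of the number of members detected with the rows at the lowest value was -0.15. Cell 9 had the lowest Tgfbr2, Tgfbr3 and Id3 and 1 ligand. Cell 10 had the most ligands, 6 of 8, and cell 16 the most receptors, 8 of 10. Cell 16 is also the cell with the highest summed adipocyte markers, and their part in its values was not tested. The mean value of the members per cell ran from 1.69 in cell 9 to 3.52 in cell 16. Over cells it had a Spearman correlation of -0.57 with the mean of 17 collagen genes (Pearson -0.50), of -0.0025 with that of the TGF-beta targets and of -0.09 with that of 20 immediate-early genes. Of the 25 members detected in at least 9 cells, Acvrl1 had the most negative correlation with the collagen mean (-0.55) and Acvr1 the most positive (0.43). The part of the normalisation in these values was not tested.

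**Figure D4:**
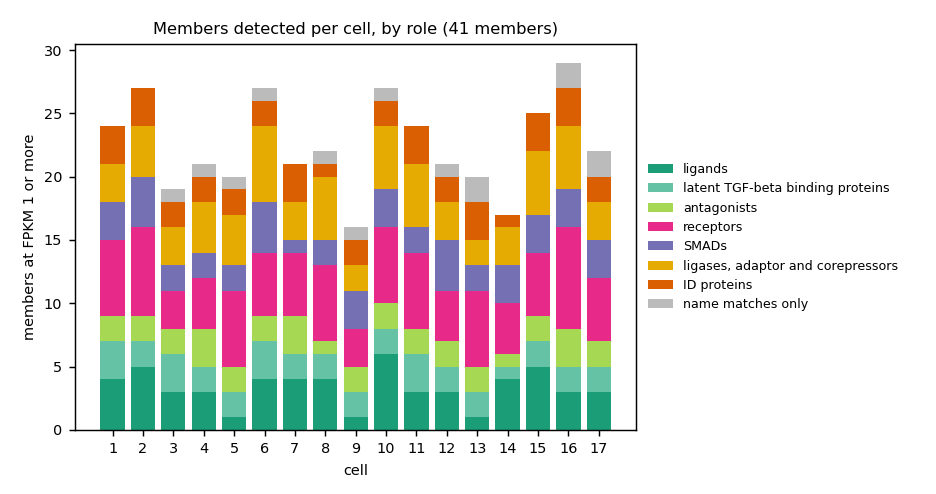
Number of members detected at FPKM 1 or more in each of the 17 cells, stacked by role, out of 41. Totals run from 16 in cell 9 to 29 in cell 16, with 3 to 8 receptors and 1 to 6 ligands per cell.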

How the data were processed

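Single Tomato-positive cells of mouse back skin (17 in all) were read with the SMART-Seq v4 3' DE kit and Nextera XT, per the labels' protocols. TopHat2, Cufflinks and GRCm38 are named in the submitters' processing notes, without versions or settings. The authors deposited 1 table of log-scale FPKM, taken here as log2(FPKM + 1), although the base is not stated. Its cells have nearly equal distributions, as quantile normalisation gives. Read depth is unknown, so no interval on a level is given.

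Members were found by symbol, and 8438 of 8446 rows (99.9%) matched GENCODE M21 by identifier. Where rows share a symbol, correlations used the row of highest mean. By rule every member is named except 1 that is not reported here, those reaching FPKM 10 with their range, with the 8 highest and 4 lowest pairs, up to 4 genes per other list, and the 5 rows most like Id3 and Tgfbr2. Members and lists were chosen with earlier results of these data known. The search for alike rows was tested on simulated data. Alternatives covered threshold, length, correlation measure and cells left out. Computation used scipy 1.17.1, numpy 2.4.6, pandas 2.3.3 and matplotlib 3.10.9 under Python 3.11.15.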

Additional observations from a re-analysis of the deposited data

How the results depend on the processing

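No paired analysis was possible because all cells form 1 group. The threshold set most counts. In all cells, 19 members exceeded the cell's lowest value, 3 reached FPKM 5, 2 reached FPKM 10, and 11 were detected after multiplying FPKM by exonic length. Members in at least 9 cells numbered 39, 15 and 9 under the first 3 of these settings, and the median per cell was 36, 18, 15 and 28 under all 4. Without cell 16, without cells 1 to 5 (where a majority was 7 of 12 cells) or with every row counted, these counts stayed within 1.5 times. Shares of all rows were counted at FPKM 1 and FPKM 10 only, so counts at the other settings are not results about the members. The mean pair correlation was 0.101 in cells 6 to 14 and 0.042 over the 37 members detected in at least 3 cells. It lay between 0.053 and 0.084 when any 1 cell was left out. The correlation of Id1 and Id3 was 0.48 in cells 6 to 14 and 0.27 after centring each gene within cells 1 to 5, 6 to 14 and 15 to 17, sets taken from earlier results of these data. The causes were not tested. Each of the 12 named pairs kept its sign under 5 settings, which were applied to these pairs after seeing the data. Of the 10 members with the highest means 7 stayed after multiplication by length, where Skil, Bmpr2 and Ski replaced Id2, Acvrl1 and Tgif1. Unknown depth leaves the detection limit of each cell undefined.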
